A study of Mus musculus with 24 samples.

Results

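The comparison set the livers of obese mice that received Mafg LNA against those of lean mice that received a control oligonucleotide, and asked what still differed between an obese and a lean liver once the transcription factor MAFG had been targeted. Its members were chosen by the labels. They were the 4 livers labelled Mafg LNA on a high-fat diet (Mafg LNA HFD) and the 4 labelled with the control LNA, Scr, on a normal control diet (Scr LNA NCD), 8 of the 24 livers and 2 of the 6 groups of the series. Mice were wild-type C57BL/6 by the labels, C57BL/6N males by the study's methods, and 18 weeks old by the labels. The HFD held 54 kJ% fat, 22 kJ% carbohydrate and 24 kJ% protein, and the NCD held 11 kJ% fat, 62 kJ% carbohydrate and 27 kJ% protein. The labels give 12 weeks of LNA injections in every group, whereas the study's methods state a longer course. An intermediate group of 4 livers, Scr LNA on HFD (Scr LNA HFD), shared the diet of the first and the LNA of the second, and its values are given beside theirs. The groups compared differed in both diet and LNA, so the effects of these cannot be told apart in their ratio alone. By the study's methods the LNA was injected intravenously. At the end of the study mice received saline or insulin at random, and which liver received which is not stated, so an unequal share between groups cannot be told apart from their other differences.

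Total RNA was depleted of rRNA and sequenced in strand-specific libraries. The deposited tables hold 1 value per group and transcript, in FPKM (fragments scaled to transcript length and to the number of mapped fragments), which the authors' software pooled over the 4 livers. There were no values of single livers and no counts, so the depth is unknown, no SD or n stands behind a value and no test was possible. Every ratio below compares one pooled value with another. It is given as log2 of Mafg LNA HFD over Scr LNA NCD after 0.1 FPKM was added to both, so that 1 is a 2-fold difference, and a gene was called higher or lower when it was at least 2-fold apart. The addition understates the ratio of weakly expressed genes.

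LNA GapmeRs are short single-stranded oligonucleotides with locked sugars at the ends and a DNA centre. They pair with a target RNA and lead RNase H to cut it. The sequences of both LNAs are shown because they define the groups, in lower case from 5′ to 3′. The third line is the stretch of the Mafg transcript that the Mafg LNA pairs with.
Mafg LNA: gtcttggactttacta
Scr LNA: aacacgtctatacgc
Mafg target site: tagtaaagtccaagac
The target site lay at chr11:120629300-120629315 (GRCm38, minus strand), in the coding sequence of the last exon of Mafg in all 4 annotated transcripts that held it. Among the spliced transcripts of GENCODE M21, a perfect complement of the Mafg LNA was found in 1 gene, Mafg, and with 1 mismatch allowed in 2 genes, Mafg and Dubr. The Scr LNA matched 0 genes, with or without 1 mismatch. Introns were not searched.

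MAFG is a small MAF protein, a leucine zipper factor without an activation domain of its own. It binds MAF recognition and antioxidant response elements, as a repressive dimer with itself or with another small MAF, or as a partner of activators such as NRF2. In liver it is known to repress genes of bile acid synthesis, and NRF2 with a small MAF drives genes of glutathione conjugation. Obesity fills hepatocytes with triglyceride, and mouse liver answers to it with PPARA targets of fatty acid oxidation, PPARG targets of lipid storage and a low-grade inflammation.

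The knockdown itself was not analysed here, because no feature of the tables was assigned to Mafg. The other small MAF genes were under the level analysed. Maff was listed at 0.0142 FPKM in Mafg LNA HFD, 0.0125 FPKM in Scr LNA HFD and 0.00827 FPKM in Scr LNA NCD. Nfe2l2, which encodes NRF2, was at 4.37 FPKM in Mafg LNA HFD, 4.97 FPKM in Scr LNA HFD and 4.39 FPKM in Scr LNA NCD. Its ratio was thus near 0, at -0.01 on the log2 scale.

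Each of the 3 tables listed 69905 features, of which 61548 carried one of 49007 Ensembl genes. Each locus was represented by 1 assembled transcript, so that a value is not the total of a gene. A gene was given the feature of its highest mean, and 6423 genes with a mean of at least 1 FPKM over the 4 groups of the tables were compared. For 59.8% of them that feature appeared to lie on the strand opposite to the gene, judged from the order of the feature numbers, and values of overlapping sense and antisense transcripts cannot be told apart. Some abundant liver genes were not represented in the groups compared: Alb, which encodes albumin, was listed at 0 in all 3 groups. It passed the filter only through 2663 FPKM in the fourth group, LincIRS2 LNA on NCD. Alb is thus counted, with a ratio of 0, among the 6423 genes and among the hepatocyte markers that passed. As for liver identity, 15 of 21 hepatocyte markers passed, among them Asgr1, the asialoglycoprotein receptor of hepatocytes (17.6 FPKM in Mafg LNA HFD, 19.5 FPKM in Scr LNA HFD and 18.1 FPKM in Scr LNA NCD), while 0 of the 20 markers of T, NK and B cells in the tables did. In whole-liver RNA, fewer cells of a type and less RNA per cell cannot be told apart.

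Of the 6423 genes, 177 were at least 2-fold higher in Mafg LNA HFD than in Scr LNA NCD (2.76%) and 186 were at least 2-fold lower (2.9%). The median log2 ratio was -0.05, the quartiles were -0.26 and 0.15, and 84.6% of genes lay within 1.5-fold. Beside this, Scr LNA HFD over Scr LNA NCD had 110 higher (1.71%) and 104 lower genes (1.62%), with the same control livers. A group on the lean diet, LincIRS2 LNA over Scr LNA NCD, had 68 higher (1.06%) and 71 lower genes (1.11%), again with the same controls. The split between higher and lower depends on the scaling. Features without a gene took 93.6% of all FPKM in Mafg LNA HFD, 90.4% in Scr LNA HFD and 90.4% in Scr LNA NCD, and protein-coding features summed to 69613, 81634 and 86267 FPKM in the same order. When the groups were rescaled to equal sums over protein-coding features, the median of all genes was 0.25 and 326 genes were higher against 109 lower, so that 74.9% of called genes were higher, against 48.8% as deposited. Lists below are therefore read against the median of all genes. No gene named below as higher or lower changed direction when rescaled in this way, though 11 of 92 came under 2-fold.

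**Figure D1:**
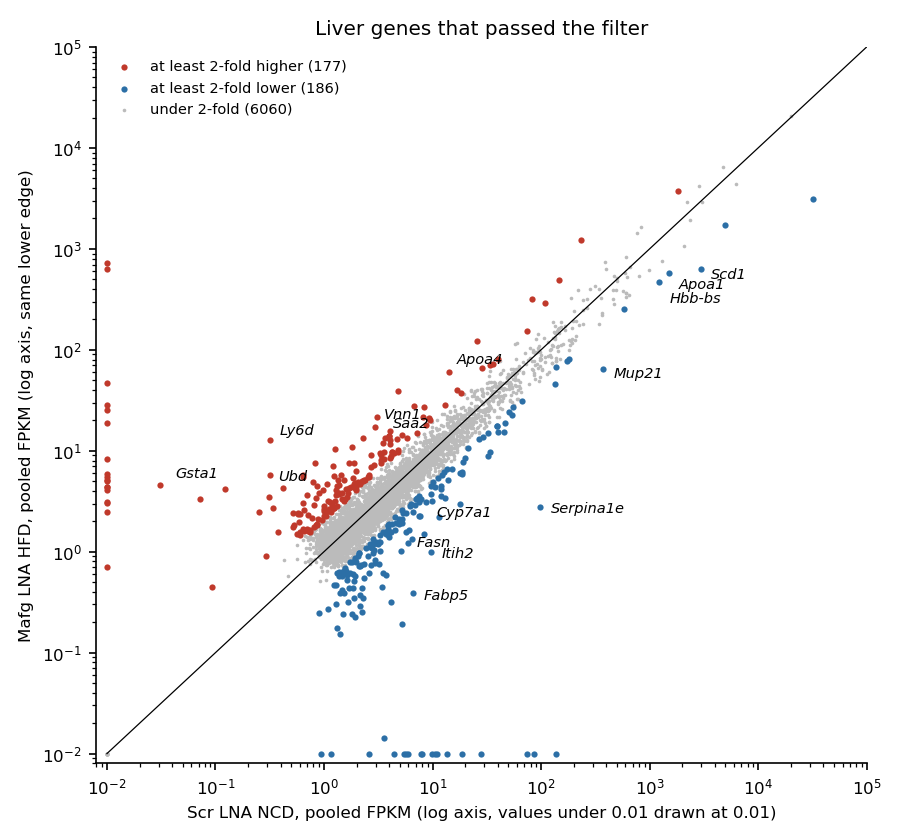
Pooled FPKM of each of the 6423 genes in Mafg LNA HFD (vertical, log axis) against Scr LNA NCD (horizontal, log axis); 1 point is 1 gene and the line marks equal values. The 177 red points are at least 2-fold higher in Mafg LNA HFD and the 186 blue points at least 2-fold lower, and points on the left and lower edges have values at or under 0.01 FPKM in a group.

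The highest ratios belonged to genes that were almost silent in the lean liver. Ly6d, which encodes a GPI-anchored surface protein of the Ly6 family (chromosome 15, 74762056 to 74763620), had 12.9 FPKM in Mafg LNA HFD, against 0.464 FPKM in Scr LNA HFD and 0.315 FPKM in Scr LNA NCD, a log2 ratio of 4.97. It was high only in the first of these 3 groups, and a further feature at the locus had 11.2, 0.505 and 0.154 FPKM in the same order. Ubd, which encodes the ubiquitin-like protein FAT10 that is induced by inflammatory cytokines, had 5.77 FPKM in Mafg LNA HFD, 0.840 FPKM in Scr LNA HFD and 0.320 FPKM in Scr LNA NCD (log2 ratio 3.80). Cfd, the complement protease adipsin best known from fat cells, had 3.51 FPKM in Mafg LNA HFD, 0.816 FPKM in Scr LNA HFD and 0.314 FPKM in Scr LNA NCD (log2 ratio 3.12). Mtnr1a, a melatonin receptor, had 4.26 FPKM in Mafg LNA HFD, 1.03 FPKM in Scr LNA HFD and 0.423 FPKM in Scr LNA NCD (log2 ratio 3.06). Each of these 4 genes stood higher in Mafg LNA HFD than in either Scr LNA group, and each passed the filter only through that value.

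Among other genes of high ratio the order of the 3 groups varied from gene to gene. Dydc2 had the top ratio among genes with a value above 0 in both groups, at 5.45, with 4.34 FPKM in Mafg LNA HFD, 9.44 FPKM in Scr LNA HFD and 0.00139 FPKM in Scr LNA NCD. Slc22a27, an organic anion transporter, had 3.34 FPKM in Mafg LNA HFD, 6.19 FPKM in Scr LNA HFD and 0.0715 FPKM in Scr LNA NCD (log2 ratio 4.33). For both, the obese livers under either LNA stood far above the lean ones. Cmbl, which encodes a hydrolase, had 4.58 FPKM in Mafg LNA HFD, 2.05 FPKM in Scr LNA HFD and 0.0311 FPKM in Scr LNA NCD (log2 ratio 5.16). Lgals1, the sugar-binding protein galectin-1, had 7.56 FPKM in Mafg LNA HFD, 4.76 FPKM in Scr LNA HFD and 0.835 FPKM in Scr LNA NCD (log2 ratio 3.03), and Clstn3, a calsyntenin, had a log2 ratio of 2.92. Larp4b, which encodes an RNA-binding protein, was at 2.47 FPKM in Mafg LNA HFD, 0.228 FPKM in Scr LNA HFD and 0.254 FPKM in Scr LNA NCD. The snRNA gene Gm22798 and the snoRNA genes Gm25776 and Gm24208 had log2 ratios of 3.0, 2.97 and 2.77. They completed the 15 highest, beside Gsta1 and Cyp4a14, which are described with their pathways. Neither Larp4b nor Gm25776 would have passed the filter without its Mafg LNA HFD value.

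The lowest ratio was that of Serpina1e, one of several near-identical genes of alpha-1-antitrypsin (chromosome 12, 103946931 to 103958975). It had 2.77 FPKM in Mafg LNA HFD, 39.5 FPKM in Scr LNA HFD and 98.6 FPKM in Scr LNA NCD, a log2 ratio of -5.10. The order of the 3 groups was not that of its neighbours. Serpina1b had 492, 336 and 145 FPKM and Serpina1d 290, 238 and 108 FPKM in the same order of groups (log2 ratios 1.76 and 1.43), Serpina1a was lower (-2.31) and Serpina1c was not called (-0.86). Summed over the 5 genes the family had 1121 FPKM in Mafg LNA HFD, 1243 FPKM in Scr LNA HFD and 970.8 FPKM in Scr LNA NCD. How the authors' program divided reads among such copies is uncertain, so the opposite ratios of single copies are too.

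Moxd1, a monooxygenase-like gene, was nearly absent from both obese groups, at 0.0143 FPKM in Mafg LNA HFD and 0.0162 FPKM in Scr LNA HFD, against 3.56 FPKM in Scr LNA NCD (log2 ratio -5.0). Fabp5, a fatty acid binding protein, had 0.387 FPKM in Mafg LNA HFD, 0.407 FPKM in Scr LNA HFD and 6.6 FPKM in Scr LNA NCD (log2 ratio -3.78). Adgrf1, an adhesion G protein-coupled receptor, had 0.319 FPKM in Mafg LNA HFD, 0.424 FPKM in Scr LNA HFD and 4.11 FPKM in Scr LNA NCD (log2 ratio -3.33). The pseudogene Gm6166 showed the same arrangement (0.190, 0.201 and 5.28 FPKM). In these 4 genes the 2 obese groups lay within a small distance of each other and only the lean livers were high.

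Nipal1, Pik3c2g and Snhg11, also among the 15 lowest, were low in Mafg LNA HFD and not in Scr LNA HFD. Nipal1, a magnesium transporter, had 0.223 FPKM in Mafg LNA HFD, 2.35 FPKM in Scr LNA HFD and 1.93 FPKM in Scr LNA NCD (log2 ratio -2.65). Pik3c2g, a liver-rich phosphoinositide kinase, had 0.239 FPKM in Mafg LNA HFD, 1.54 FPKM in Scr LNA HFD and 1.80 FPKM in Scr LNA NCD (log2 ratio -2.48), but when all its features were summed the ratio was -0.92 and short of 2-fold. Snhg11, a small nucleolar RNA host gene, had 0.153 FPKM in Mafg LNA HFD, 1.14 FPKM in Scr LNA HFD and 1.40 FPKM in Scr LNA NCD (log2 ratio -2.57). Itih2, a carrier of hyaluronan in plasma, lay between, with 0.994 FPKM in Mafg LNA HFD, 2.02 FPKM in Scr LNA HFD and 9.76 FPKM in Scr LNA NCD (log2 ratio -3.17). The immunoglobulin joining segment Ighj2, of only 48 annotated bases, was listed at 3145 FPKM in Mafg LNA HFD, 0 FPKM in Scr LNA HFD and 31883 FPKM in Scr LNA NCD, and FPKM of so short a segment is not a stable level. Further genes among the 15 lowest were H2-Q7 (-2.70), the antisense gene Gm16984 (-2.74), Hsd3b5 (-2.55) and Mup21 (-2.54). In each of these the Scr LNA HFD value lay between the others. Gm16984 passed the filter only through its Scr LNA NCD value.

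**Figure D2:**
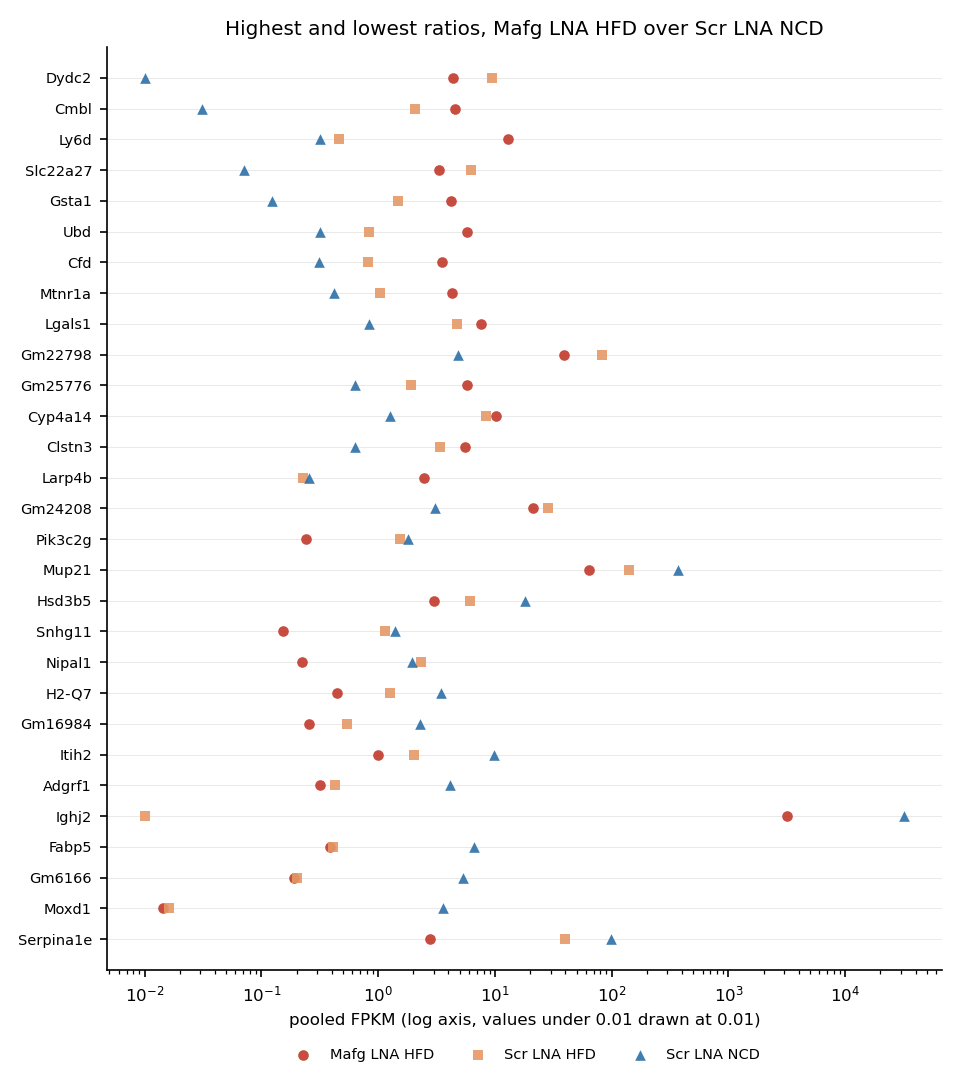
Pooled FPKM (horizontal, log axis, values under 0.01 drawn at 0.01) of genes among the 15 of highest and the 15 of lowest ratio that had a value above 0 in both groups, sorted from highest to lowest ratio; red circles are Mafg LNA HFD, orange squares Scr LNA HFD and blue triangles Scr LNA NCD, with 1 pooled value each. For Ly6d, Ubd and Cfd the red circle stands apart from the other symbols, and for Fabp5, Moxd1 and Adgrf1 the blue triangle does.

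Ratios of genes nearly silent in one group depend on the constant added. With 1 FPKM in place of 0.1 FPKM the log2 ratio was 2.42 for Dydc2, 2.36 for Ubd and 1.78 for Cfd, and 102 genes were higher and 101 lower. Of the 363 genes called in either direction (5.65%), 66 had another feature of at least 1 FPKM. Those 78 features had the same direction in 76 cases and were past 2-fold in 48. They overlap the chosen feature and are no independent measurement. The deposited tables mark 43 of the 363 called genes as having too few alignments for a test in at least 1 of the tables that hold the groups compared, among them Moxd1, Gm6166, Ighj2, Larp4b, Gm25776 and Camp. A further limit is a value of exactly 0 in one or both of the groups compared, as in 51 genes that passed. Genes at 0 in both, such as Alb, passed through another group and have a ratio of 0. Osbpl3, an oxysterol-binding protein, was listed at 4.42 FPKM in Mafg LNA HFD, 2.17 FPKM in Scr LNA HFD and 0 FPKM in Scr LNA NCD.

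Across 40 gene lists with 815 genes, 382 listed genes passed, of which 33 were higher and 40 were lower. Over all 6423 genes the shares were 2.76% higher and 2.9% lower. The lists were chosen with earlier results of these data known, so their share of calls is not an independent result. The plot of members by list shows all lists of at least 4 members. Rescaling to protein-coding sums turned the sign of 11 of 36 list medians, all of them within 0.29 of 0.

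**Figure D3:**
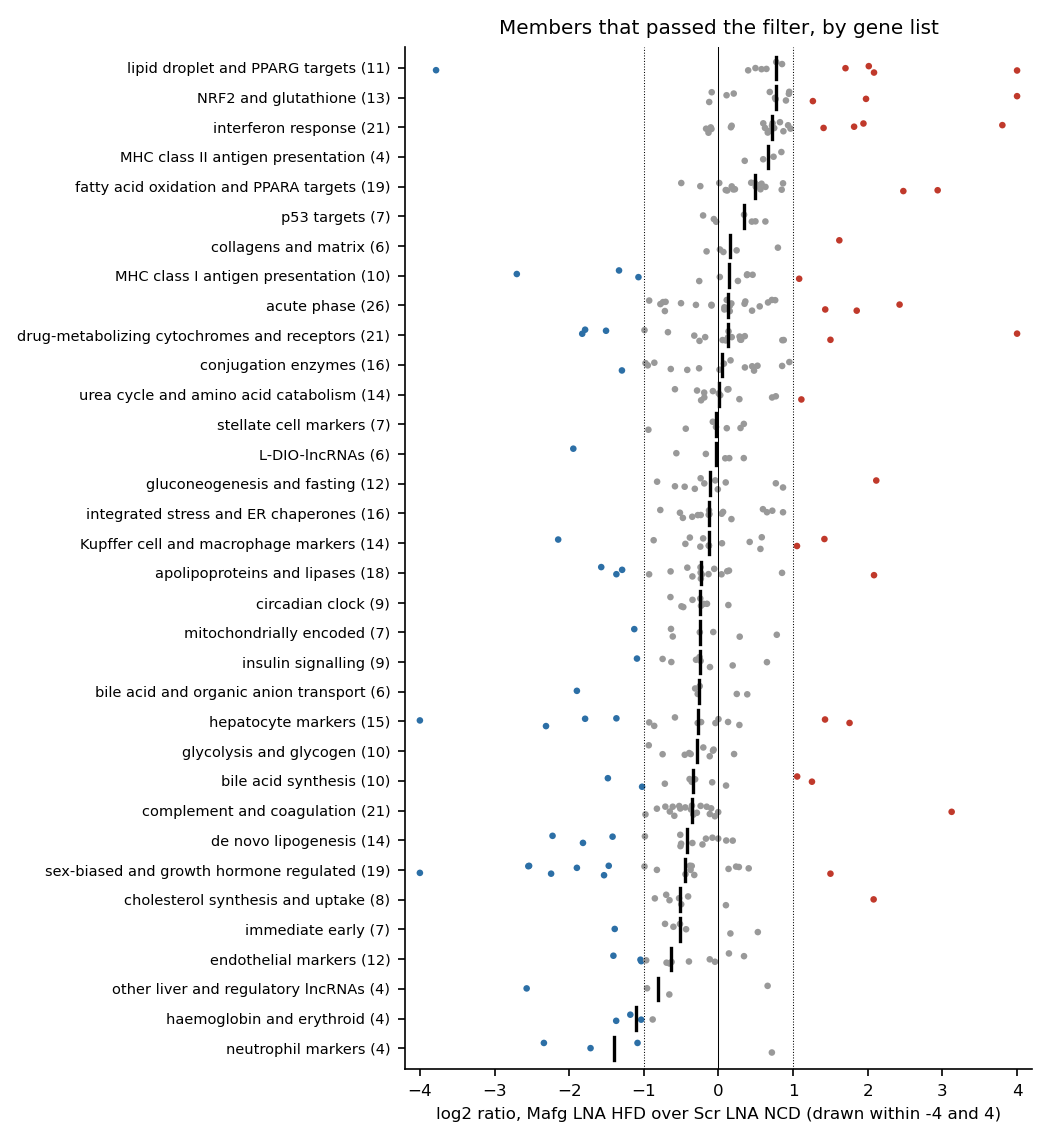
Log2 ratio of Mafg LNA HFD over Scr LNA NCD (horizontal, drawn within -4 and 4) of every list member that passed the filter, with the number of members in brackets; black bars are list medians, dotted lines mark 2-fold, red points are higher and blue points lower. Lipid droplet and PPARG targets have the top median (0.77) and neutrophil markers the lowest (-1.40).

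Genes of lipid storage and of fatty acid oxidation lay mostly above the lean liver. PPARG directs storage of triglyceride, and among its targets and lipid droplet genes 11 of 21 passed, of which 4 were higher and 1 was lower, with a median of 0.77. Apoa4, an apolipoprotein of triglyceride export (chromosome 9, 46240696 to 46243459), had 60.3 FPKM in Mafg LNA HFD, 39.1 FPKM in Scr LNA HFD and 14.2 FPKM in Scr LNA NCD (log2 ratio 2.08). Fitm1, which partitions triglyceride into droplets, had 27.8 FPKM in Mafg LNA HFD, 18.7 FPKM in Scr LNA HFD and 6.81 FPKM in Scr LNA NCD (log2 ratio 2.01). Cd36, a fatty acid transporter, had 4.51 FPKM in Mafg LNA HFD, 3.62 FPKM in Scr LNA HFD and 1.32 FPKM in Scr LNA NCD (log2 ratio 1.70). All 3 genes were high in both obese groups and highest in Mafg LNA HFD. The fourth higher member was Osbpl3 and the lower one Fabp5, given above. Osbpl3 passed the filter only through its Mafg LNA HFD value, so it had to differ. Plin2, which coats lipid droplets, was at 12.5, 10.9 and 8.37 FPKM in the same order, short of 2-fold (0.58). The feature of Pparg itself had 1.71 FPKM in Mafg LNA HFD, 0.920 FPKM in Scr LNA HFD and 0.287 FPKM in Scr LNA NCD, but its mean over all groups was under the minimum.

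Among PPARA targets and genes of fatty acid oxidation 19 of 33 passed, 2 were higher and 0 were lower, and the median was 0.49, with 17 of the 19 above 0. Cyp4a14, a fatty acid omega-hydroxylase, had 10.3 FPKM in Mafg LNA HFD, 8.44 FPKM in Scr LNA HFD and 1.26 FPKM in Scr LNA NCD (log2 ratio 2.94). Vnn1, the pantetheinase that recycles coenzyme A precursors, had 17.1 FPKM in Mafg LNA HFD, 9.45 FPKM in Scr LNA HFD and 2.98 FPKM in Scr LNA NCD (log2 ratio 2.48). The most abundant member was not called. Fabp1, the main fatty acid binding protein of liver, had 4421 FPKM in Mafg LNA HFD, 4607 FPKM in Scr LNA HFD and 6246 FPKM in Scr LNA NCD (log2 ratio -0.50).

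Some lipogenic genes were lower. Of 20 genes of fatty acid synthesis, 14 passed, 0 were higher and 3 were lower, with a median of -0.42. Scd1, which desaturates stearate to oleate (chromosome 19, 44394451 to 44407709), had 635 FPKM in Mafg LNA HFD, 1731 FPKM in Scr LNA HFD and 2966 FPKM in Scr LNA NCD, a log2 ratio of -2.22, and a second feature at the locus gave -2.39. Fasn, the fatty acid synthase, had 1.56 FPKM in Mafg LNA HFD, 3.29 FPKM in Scr LNA HFD and 5.73 FPKM in Scr LNA NCD (log2 ratio -1.82). Acly, which supplies cytosolic acetyl-CoA, had 1.63 FPKM in Mafg LNA HFD, 2.52 FPKM in Scr LNA HFD and 4.52 FPKM in Scr LNA NCD (log2 ratio -1.42). In all 3 the Scr LNA HFD value lay between the others. Thrsp, an activator of lipogenesis, came next at -0.99, with 3.05, 9.08 and 6.13 FPKM. Fads2, a desaturase of polyunsaturated fatty acids, was at 150, 136 and 131 FPKM (0.19). For cholesterol synthesis and uptake 8 of 22 genes passed with a median of -0.51. Fdft1, squalene synthase, was at 3.01 FPKM in Mafg LNA HFD, 2.2 FPKM in Scr LNA HFD and 0.635 FPKM in Scr LNA NCD (log2 ratio 2.08) and was the only member called, while Fdps, farnesyl diphosphate synthase, was at -0.85.

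Among apolipoproteins and lipases 18 of 26 passed, 1 was higher (Apoa4) and 3 were lower. Apoa1, the main protein of HDL, had 581 FPKM in Mafg LNA HFD, 983 FPKM in Scr LNA HFD and 1499 FPKM in Scr LNA NCD (log2 ratio -1.37), and its second feature gave -1.36. Lipc, hepatic lipase, had 6.23 FPKM in Mafg LNA HFD, 17.4 FPKM in Scr LNA HFD and 18.7 FPKM in Scr LNA NCD (log2 ratio -1.57), so that only the Mafg LNA HFD livers were low. Apom, the HDL protein that carries sphingosine-1-phosphate, had 7.80 FPKM in Mafg LNA HFD, 10.8 FPKM in Scr LNA HFD and 19.2 FPKM in Scr LNA NCD (log2 ratio -1.29). Apob was at 389, 530 and 460 FPKM (-0.24).

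Bile acid genes were split. Of 14 genes of bile acid synthesis and its control, 10 passed, 2 were higher and 2 were lower, and the median was -0.34. Cyp7a1, the rate-limiting enzyme of the classic pathway, had 3.09 FPKM in Mafg LNA HFD, 10.7 FPKM in Scr LNA HFD and 8.80 FPKM in Scr LNA NCD, a log2 ratio of -1.48, and its second feature gave -1.53. Nr0b2, which encodes SHP, a repressor of Cyp7a1, had 2.50 FPKM in Mafg LNA HFD, 1.79 FPKM in Scr LNA HFD and 1.15 FPKM in Scr LNA NCD (log2 ratio 1.05). Cyp2c70, which makes muricholic acids, had 67.9 FPKM in Mafg LNA HFD, 95.5 FPKM in Scr LNA HFD and 138 FPKM in Scr LNA NCD (log2 ratio -1.02). Hsd17b4, the peroxisomal multifunctional enzyme of side chain shortening, had 4.35 FPKM in Mafg LNA HFD, 1.03 FPKM in Scr LNA HFD and 1.77 FPKM in Scr LNA NCD (log2 ratio 1.25). Its second feature was short of 2-fold at 0.66, with 1.28, 1.16 and 0.776 FPKM in the same order of groups. Cyp7b1, of the alternative pathway, was at 34.9, 27.4 and 44.7 FPKM (-0.36), and the feature of Cyp8b1, the sterol 12-alpha-hydroxylase, was under the level analysed. Among transporters of bile acids and organic anions, 6 of 15 passed and 1 was called: Slco1a1, with 3.42 FPKM in Mafg LNA HFD, 6.06 FPKM in Scr LNA HFD and 13 FPKM in Scr LNA NCD (log2 ratio -1.90).

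Conjugation by glutathione and other NRF2 targets had a high median, 0.77, over 13 of 23 genes that passed, with 3 higher and 0 lower. Gsta1, an alpha-class glutathione S-transferase, had 4.22 FPKM in Mafg LNA HFD, 1.47 FPKM in Scr LNA HFD and 0.123 FPKM in Scr LNA NCD (log2 ratio 4.28). Gstp2, of the pi class, had 3.80 FPKM in Mafg LNA HFD, 1.43 FPKM in Scr LNA HFD and 0.892 FPKM in Scr LNA NCD (log2 ratio 1.98). Aox1, aldehyde oxidase, had 4.73 FPKM in Mafg LNA HFD, 3.47 FPKM in Scr LNA HFD and 1.91 FPKM in Scr LNA NCD (log2 ratio 1.26). In these 3 genes the Scr LNA HFD livers were between the others. Gsta1 passed the filter only through its Mafg LNA HFD value, and when each group had to reach 1 FPKM Aox1 was the only member called. Short of 2-fold were Srxn1, sulfiredoxin (7.46, 5.16 and 3.83 FPKM, 0.94), Nqo1, NAD(P)H quinone oxidoreductase (1.39, 1.41 and 0.696 FPKM, 0.90), and Hmox1, heme oxygenase (2.80, 1.59 and 1.61 FPKM, 0.76). The abundant Gstp1 had 52.9 FPKM in Mafg LNA HFD, 21.6 FPKM in Scr LNA HFD and 57.7 FPKM in Scr LNA NCD (log2 ratio -0.12). The list median was 0.20 with features on the gene's own strand only and 0.25 without the filter on low values, and near-identical copies within the Gsta and Gstp families are uncertain.

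For gluconeogenesis and fasting 12 of 19 genes passed and 1 was called. Gcgr, the glucagon receptor, had 5.63 FPKM in Mafg LNA HFD, 2.17 FPKM in Scr LNA HFD and 1.22 FPKM in Scr LNA NCD (log2 ratio 2.11). G6pc, glucose-6-phosphatase, was at 15.3, 14.7 and 21.0 FPKM (-0.45), Tat, tyrosine aminotransferase, at 35.3, 34.1 and 52.9 FPKM (-0.58) and Fgf21, a fasting hormone, at 1.54, 1.18 and 0.802 FPKM (0.86). Of 18 insulin signalling genes 9 passed and 1 was called, Igfbp2, a binding protein of insulin-like growth factors, with 13.6 FPKM in Mafg LNA HFD, 11.8 FPKM in Scr LNA HFD and 29.1 FPKM in Scr LNA NCD (log2 ratio -1.09). Irs2, the insulin receptor substrate for which LincIRS2 is named, was under the level analysed at 0.0660, 0.0685 and 0.125 FPKM. Glycolysis and glycogen (10 passed), the circadian clock (9), integrated stress and ER chaperones (16) and p53 targets (7) had 0 genes past 2-fold, with medians of -0.29, -0.24, -0.12 and 0.34. Of the urea cycle and amino acid list 14 passed and 1 was higher, Oat, ornithine aminotransferase (5.14, 3.71 and 2.33 FPKM, 1.11).

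Several male-biased genes under growth hormone control were lower. Of 41 sex-biased or growth hormone regulated genes 19 passed, with 1 higher, 7 lower and a median of -0.44. Mup3, a major urinary protein, had 1709 FPKM in Mafg LNA HFD, 3345 FPKM in Scr LNA HFD and 4944 FPKM in Scr LNA NCD (log2 ratio -1.53), and Mup21 had 63.9 FPKM in Mafg LNA HFD, 141 FPKM in Scr LNA HFD and 371 FPKM in Scr LNA NCD (log2 ratio -2.54). Mup copies are near-identical, and Mup20 ran the other way at 2936, 1170.4 and 2218 FPKM (0.40), so single copies are uncertain. The sum over 9 Mup genes was 4848 FPKM in Mafg LNA HFD, 4822 FPKM in Scr LNA HFD and 7842 FPKM in Scr LNA NCD (log2 ratio of the sums -0.69). Hsd3b5, a steroid dehydrogenase of male mouse liver, had 3.0 FPKM in Mafg LNA HFD, 6.07 FPKM in Scr LNA HFD and 18.0 FPKM in Scr LNA NCD (log2 ratio -2.55). Socs2, a feedback inhibitor induced by growth hormone, had 0.964 FPKM in Mafg LNA HFD, 1.22 FPKM in Scr LNA HFD and 2.85 FPKM in Scr LNA NCD (log2 ratio -1.47). Mup12 (-2.24), Serpina1e and Slco1a1 were the other lower members. The single higher member, Cyp2b9, a cytochrome P450 known from female liver, had 0.447 FPKM in Mafg LNA HFD, 7.76 FPKM in Scr LNA HFD and 0.0935 FPKM in Scr LNA NCD, so that the high group was Scr LNA HFD, and its ratio of 1.5 was 0.40 with 1 FPKM added in place of 0.1 FPKM.

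Among cytochromes and their regulators 21 of 32 passed, 2 were higher (Gsta1, listed with them, and Cyp2b9) and 3 were lower. Cyp1a2, a pericentral cytochrome, had 9.81 FPKM in Mafg LNA HFD, 23.2 FPKM in Scr LNA HFD and 34.1 FPKM in Scr LNA NCD (log2 ratio -1.79). Cyp2c39 had 0.765 FPKM in Mafg LNA HFD, 4.01 FPKM in Scr LNA HFD and 2.96 FPKM in Scr LNA NCD (log2 ratio -1.83). Cyp2c29 was lower by its main feature, with 4.17 FPKM in Mafg LNA HFD, 10.8 FPKM in Scr LNA HFD and 12.0 FPKM in Scr LNA NCD (log2 ratio -1.51), but the feature on its own strand gave 0.47. Over the Cyp2c family, 7 of 12 genes that passed were lower and 0 were higher, and their summed FPKM was 226 in Mafg LNA HFD, 375.5 in Scr LNA HFD and 387 in Scr LNA NCD. Over all 6423 genes 2.9% were lower and 2.76% higher. The Cyp2c family was looked at after its values were seen, and its copies share reads. The broadly expressed Cyp2e1 (154, 153 and 141 FPKM, 0.13) and Cyp3a11 (13.4, 9.63 and 11.8 FPKM, 0.18) were not called. Of 30 conjugation enzymes 16 passed and 1 was lower, Ugt2a3, a glucuronosyltransferase (18.8, 52.3 and 46.3 FPKM, -1.29).

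Of 35 acute phase genes 26 passed, with 3 higher, 0 lower and a median of 0.13, and the 3 were the inducible Saa genes, whose products coat HDL during inflammation. Saa1 had 14.4 FPKM in Mafg LNA HFD, 3.06 FPKM in Scr LNA HFD and 5.27 FPKM in Scr LNA NCD (log2 ratio 1.43). Saa2 had 13.4 FPKM in Mafg LNA HFD, 2.12 FPKM in Scr LNA HFD and 3.63 FPKM in Scr LNA NCD (log2 ratio 1.85). Saa3 had 6.99 FPKM in Mafg LNA HFD, 1.67 FPKM in Scr LNA HFD and 1.22 FPKM in Scr LNA NCD (log2 ratio 2.43). All 3 were higher in Mafg LNA HFD than in either Scr LNA group. The lean LincIRS2 LNA NCD livers, however, had 29.4 FPKM of Saa1 and 39.2 FPKM of Saa2, above the Mafg LNA HFD values, and 1.77 FPKM of Saa3. Saa1 and Saa2 are near-identical, so their separate values are uncertain. Short of 2-fold were Orm2, an orosomucoid (24.6, 8.18 and 14.5 FPKM, 0.76), and Lcn2, lipocalin-2 (2.83, 0.706 and 1.69 FPKM, 0.72). The constitutive Saa4 was at 57.7, 63.5 and 42.2 FPKM (0.45), and fibrinogen ran the other way, with Fgb at 180, 226 and 342 FPKM (-0.93) and Fgg at 758, 990.0 and 1300.1 FPKM (-0.78). Complement and coagulation, made largely by hepatocytes, had 20 of 21 passed members under 0, a median of -0.36 and 0 lower calls, while Cfd was its only higher member. The median of all genes was -0.05. When rescaled to protein-coding sums the list median was -0.047 and that of all genes 0.25, so the count under 0 depends on the scaling.

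**Figure D4:**
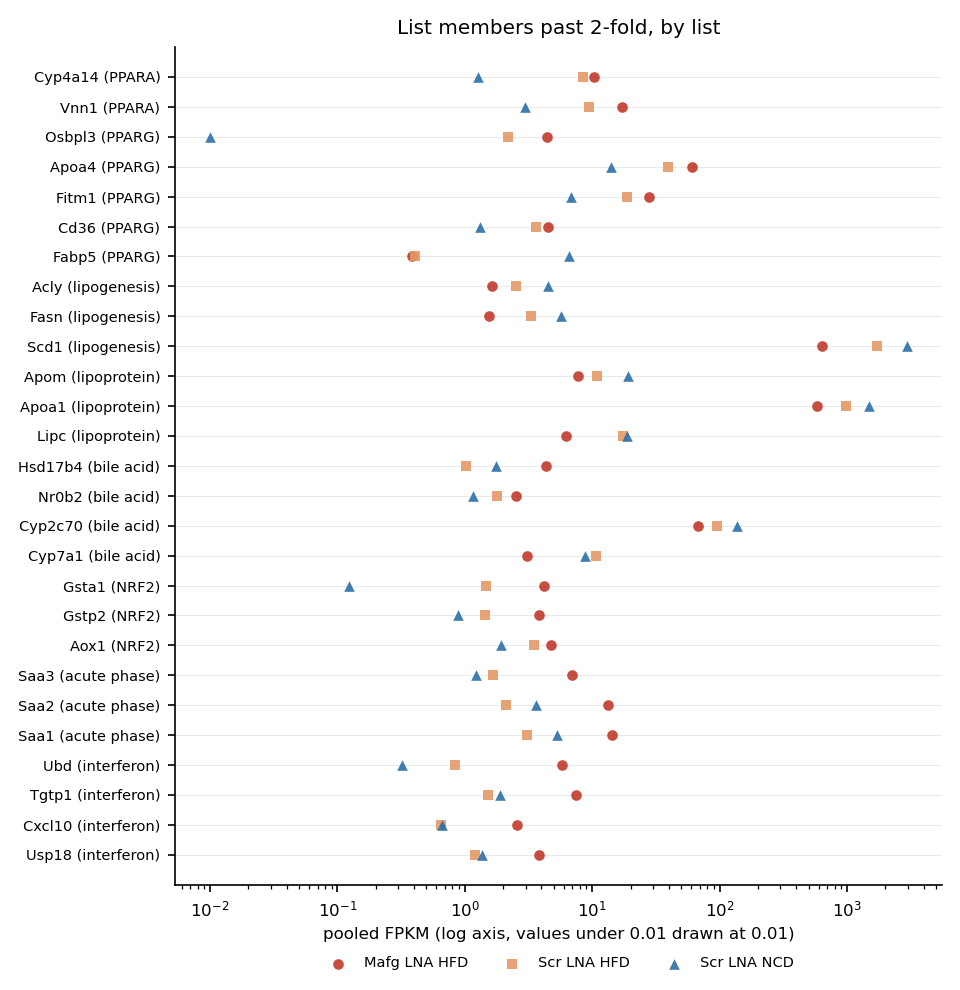
Pooled FPKM (horizontal, log axis, values under 0.01 drawn at 0.01) of members past 2-fold in 8 lists, named in brackets, with each gene shown once; red circles are Mafg LNA HFD, orange squares Scr LNA HFD and blue triangles Scr LNA NCD, with 1 pooled value each. The square lies between the circle and the triangle for Scd1, Fasn and Acly, whereas for Saa1 and Saa2 it lies below both.

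The 250 bases before the start of Saa1, Saa2, Saa3 and Gstp2 are shown because these genes were higher and hold TGCTGA, the core of one arm of the MAF recognition element (RefSeq, GRCm38.p6). Both strands were searched for TGCTGA and for TGACNNNGC, the core of the antioxidant response element, which can overlap TGCTGA by the letters TGA. Capitals mark the match, which in all 4 lay on the other strand and therefore reads TCAGCA.
Saa1: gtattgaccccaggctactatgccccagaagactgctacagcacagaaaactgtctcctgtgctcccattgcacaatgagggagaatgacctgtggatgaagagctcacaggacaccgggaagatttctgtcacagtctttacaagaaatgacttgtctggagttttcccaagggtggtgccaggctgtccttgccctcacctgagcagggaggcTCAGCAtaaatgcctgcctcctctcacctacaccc
Saa2: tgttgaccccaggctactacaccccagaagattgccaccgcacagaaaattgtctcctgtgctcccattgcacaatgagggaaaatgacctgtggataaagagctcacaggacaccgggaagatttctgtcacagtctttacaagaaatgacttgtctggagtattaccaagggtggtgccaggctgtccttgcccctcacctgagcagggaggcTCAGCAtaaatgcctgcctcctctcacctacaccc
Saa3: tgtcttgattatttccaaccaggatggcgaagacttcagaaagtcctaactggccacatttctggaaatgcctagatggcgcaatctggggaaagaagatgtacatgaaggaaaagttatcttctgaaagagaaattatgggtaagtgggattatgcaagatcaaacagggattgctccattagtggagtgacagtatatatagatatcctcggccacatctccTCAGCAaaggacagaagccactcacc
Gstp2: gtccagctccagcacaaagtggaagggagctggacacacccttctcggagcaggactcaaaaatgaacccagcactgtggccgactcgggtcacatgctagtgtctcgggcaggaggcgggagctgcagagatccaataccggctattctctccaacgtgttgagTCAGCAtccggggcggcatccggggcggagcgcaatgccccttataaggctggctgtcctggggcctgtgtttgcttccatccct
These stretches are chr7:46742981-46743230 (minus strand), chr7:46751583-46751832 (plus strand), chr7:46715677-46715926 (minus strand) and chr19:4042222-4042471 (minus strand). The match began 35 bases before the start in Saa1 and Saa2, 26 bases before it in Saa3 and 85 bases before it in Gstp2. TGCTGA was common in this window. It stood in 18.0% of 27025 RefSeq genes, in 15.8% of the 4227 passed genes with a promoter in the table, in 17 of 93 higher genes (18.3%) and in 13 of 108 lower genes (12.0%). TGACNNNGC stood in 11.5% of all genes, 14.3% of passed genes, 9 of 93 higher genes (9.7%) and 14 of 108 lower genes (13%). The 4 genes were chosen after their values were seen, and a match of these letters is not a bound site.

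Several interferon-inducible genes were higher than in the lean liver. Of 44 genes 21 passed, 4 were higher and 0 lower, with a median of 0.72. Tgtp1, a T-cell specific GTPase induced by interferon, had 7.53 FPKM in Mafg LNA HFD, 1.53 FPKM in Scr LNA HFD and 1.89 FPKM in Scr LNA NCD (log2 ratio 1.94). Cxcl10, a chemokine that draws T cells, had 2.57 FPKM in Mafg LNA HFD, 0.654 FPKM in Scr LNA HFD and 0.657 FPKM in Scr LNA NCD (log2 ratio 1.82). Usp18, which removes ISG15 from proteins, had 3.82 FPKM in Mafg LNA HFD, 1.21 FPKM in Scr LNA HFD and 1.38 FPKM in Scr LNA NCD (log2 ratio 1.41). With Ubd, these were the called members, and in each both Scr LNA groups lay below Mafg LNA HFD. Ubd and Cxcl10 passed the filter only through their Mafg LNA HFD value, so they had to differ, and Tgtp1 and Usp18 were the called members when each group had to reach 1 FPKM. Isg15 (3.81, 1.42 and 1.95 FPKM, 0.93) and Rsad2 (2.84, 1.55 and 1.40 FPKM, 0.96) came short of 2-fold. The abundant members did not share the pattern: Stat2 was at 35.7, 43.1 and 40.1 FPKM and Bst2 at 51.1, 39.3 and 54.9 FPKM, and the list median was -0.10 with a minimum of 5 FPKM and -0.09 on the gene's own strand. Of the MHC class II list 4 of 12 passed and 0 were called, with H2-Aa at 11.0 FPKM in Mafg LNA HFD, 3.51 FPKM in Scr LNA HFD and 6.56 FPKM in Scr LNA NCD (log2 ratio 0.74). In MHC class I, H2-Q1 was higher (5.51, 3.53 and 2.55 FPKM, 1.08) and H2-Q7, H2-Q4 and H2-D1 were lower (-2.70, -1.33 and -1.07). These genes are near-identical and polymorphic, which makes single copies uncertain. The receptors Tlr12 (5.10, 3.33 and 1.35 FPKM, 1.84) and Tlr5, which senses flagellin (1.97, 1.35 and 0.587 FPKM, 1.59), were higher among 3 Toll-like receptor genes that passed. Tlr5 passed the filter only through its Mafg LNA HFD value. Its ratio was 0.91 with 1 FPKM added in place of 0.1 FPKM.

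Markers of blood and non-parenchymal cells differed as well, and their part in the results above was not tested. Of 28 Kupffer cell and macrophage markers 14 passed, and their summed level was 66.7 FPKM in Mafg LNA HFD, 44.2 FPKM in Scr LNA HFD and 71.5 FPKM in Scr LNA NCD. Marco, a scavenger receptor, had 2.86 FPKM in Mafg LNA HFD, 1.22 FPKM in Scr LNA HFD and 1.33 FPKM in Scr LNA NCD (log2 ratio 1.05). Ccr2, the chemokine receptor of recruited monocytes, had 2.85 FPKM in Mafg LNA HFD, 0.937 FPKM in Scr LNA HFD and 1.00 FPKM in Scr LNA NCD (log2 ratio 1.42). Ccr2 passed the filter only through its Mafg LNA HFD value. With 1 FPKM added in place of 0.1 FPKM, Marco (0.73) and Ccr2 (0.94) were short of 2-fold. Cd163, the haemoglobin scavenger receptor, had 0.351 FPKM in Mafg LNA HFD, 1.07 FPKM in Scr LNA HFD and 1.90 FPKM in Scr LNA NCD (log2 ratio -2.15). It passed the filter only through its Scr LNA NCD value. The Kupffer cell markers Clec4f (4.46, 3.91 and 6.10 FPKM, -0.44) and Vsig4 (4.32, 5.12 and 7.97 FPKM, -0.87) were not called, and the features of Gpnmb were listed at 0 in the 3 groups.

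Some neutrophil and erythroid genes were lower in Mafg LNA HFD than in Scr LNA NCD. Of 14 neutrophil markers 4 passed, with summed levels of 8.64 FPKM in Mafg LNA HFD, 2.13 FPKM in Scr LNA HFD and 19.1 FPKM in Scr LNA NCD. S100a8, a calprotectin subunit, had 2.25 FPKM in Mafg LNA HFD, 0.643 FPKM in Scr LNA HFD and 7.6 FPKM in Scr LNA NCD (log2 ratio -1.71), S100a9, the other subunit, had a ratio of -1.08 and Camp, cathelicidin, one of -2.34, while the remaining member, Lcn2, was at 0.72. The lean LincIRS2 LNA NCD livers had 0.702 FPKM of S100a8 and 0.464 FPKM of S100a9, below Mafg LNA HFD, and Camp was listed at 0 there, so that Scr LNA NCD was the high group. Camp passed the filter only through its Scr LNA NCD value, so it had to differ. The list median was -1.40, and -0.50 without the filter on low values. Of 11 haemoglobin and erythroid genes 4 passed and 3 were lower. Hbb-bs, a beta-globin gene, had 473 FPKM in Mafg LNA HFD, 1086 FPKM in Scr LNA HFD and 1223 FPKM in Scr LNA NCD (log2 ratio -1.37), and the summed globin level was 901 FPKM in Mafg LNA HFD, 1950 FPKM in Scr LNA HFD and 2045 FPKM in Scr LNA NCD. The globin values thus set Mafg LNA HFD apart from both Scr LNA groups, while the summed neutrophil level was lower in Scr LNA HFD than in Mafg LNA HFD. Of 16 endothelial markers 12 passed and 3 were lower, among them Kdr, the VEGF receptor (1.88, 3.19 and 3.99 FPKM, -1.05), and F8, coagulation factor VIII (2.45, 4.77 and 6.66 FPKM, -1.41), with summed levels over the list of 23.4 FPKM in Mafg LNA HFD, 33.4 FPKM in Scr LNA HFD and 39.5 FPKM in Scr LNA NCD. Kdr was short of 2-fold when all its features were summed (-0.90), and its other feature above the minimum gave -0.49. Of 15 stellate cell markers 7 passed and 0 were called, and their sums were 64.1 FPKM in Mafg LNA HFD, 76.1 FPKM in Scr LNA HFD and 70.4 FPKM in Scr LNA NCD. Of 25 genes of collagens and matrix 6 passed, with a median of 0.155 and sums of 101.7, 105.5 and 104.5 FPKM in the same order. Col1a2, a fibrillar collagen chain, was the only member called, and was higher (6.30, 3.01 and 1.99 FPKM, 1.62). Of the cholangiocyte markers 2 passed, Spp1, osteopontin (17.9, 10.8 and 8.65 FPKM, 1.04), and Tff3 (1.63, 1.20 and 6.06 FPKM, -1.83).

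LncRNA and protein-coding genes had nearly the same distribution of ratios. The study had asked whether lncRNAs respond to nutrient state otherwise than mRNAs. Of 7698 lncRNA genes, 463 passed, with 13 higher (2.81%) and 10 lower (2.16%) and a median of -0.07. Among 5136 protein-coding genes 119 were higher (2.32%) and 136 lower (2.65%), and the median was -0.05. The 158 lincRNA genes had a median of 0.03 and the 290 antisense genes one of -0.10. Processed pseudogenes, which share sequence with their parent genes, had 5 higher and 15 lower among 352, with a median of -0.14. The shares over all 6423 genes were 2.76% higher and 2.9% lower.

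**Figure D5:**
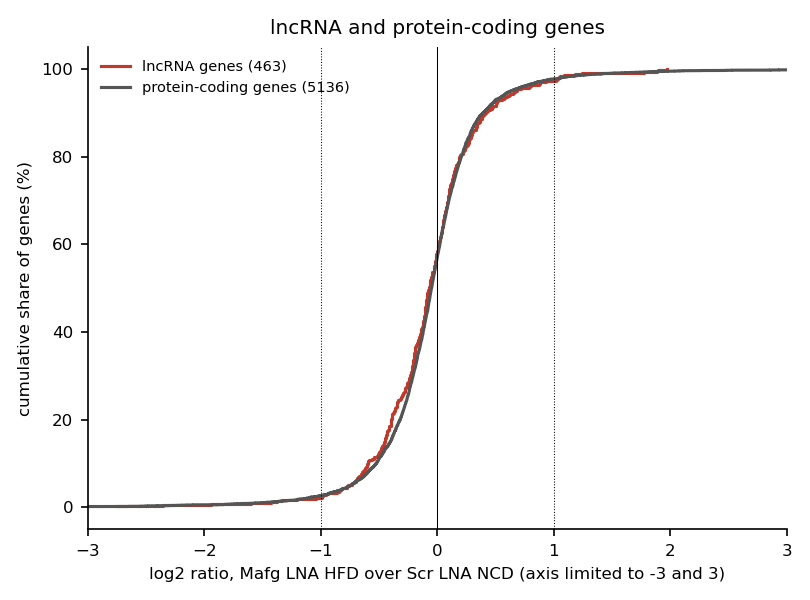
Cumulative share of genes (vertical, %) with a log2 ratio of Mafg LNA HFD over Scr LNA NCD at or under the value on the horizontal axis, for 463 lncRNA genes (red) and 5136 protein-coding genes (grey); dotted lines mark 2-fold. The curves nearly coincide, with medians of -0.07 and -0.05.

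The study named 7 liver-enriched lncRNAs that respond to diet-induced obesity (L-DIO-lncRNAs). Of these 6 passed and 1 was called. 9030622O22Rik (chromosome 2, 147944740 to 148040203) had 0.754 FPKM in Mafg LNA HFD, 4.46 FPKM in Scr LNA HFD and 3.19 FPKM in Scr LNA NCD, a log2 ratio of -1.94, so that the low group was Mafg LNA HFD. Gm10319 had 9.17 FPKM in Mafg LNA HFD, 12.9 FPKM in Scr LNA HFD and 13.6 FPKM in Scr LNA NCD (log2 ratio -0.56). 9030616G12Rik (0.34), C730036E19Rik (0.14), B930025P03Rik (0.09) and Gm8883 (-0.17) lay near the lean level. B930025P03Rik, which lies near the LincIRS2 gene on chromosome 8, had 1.58 FPKM in Mafg LNA HFD, 0.573 FPKM in Scr LNA HFD and 1.47 FPKM in Scr LNA NCD. LincIRS2, 4833411C07Rik (chromosome 8, 10899922 to 10903893), was under the level analysed. Its values were 0.483 FPKM in Mafg LNA HFD, 0.213 FPKM in Scr LNA HFD and 0.558 FPKM in Scr LNA NCD, with the lower value in Scr LNA HFD. The most abundant lncRNA called, Gm10680, had 321 FPKM in Mafg LNA HFD, 212 FPKM in Scr LNA HFD and 81.8 FPKM in Scr LNA NCD (log2 ratio 1.97). It is antisense at the Apoa4 locus, whose values ran in parallel, and reads from the 2 strands of that locus cannot be told apart here. Gm10680 was named after its values were seen.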

How the data were processed

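Liver RNA was measured in the groups described above. Per the study's methods and the submitters' processing notes, reads of rRNA-depleted, strand-specific libraries were cleared of rRNA with Bowtie2 2.2.9, aligned with STAR 2.6.0c to GRCm38 and assembled and quantified with Cufflinks 2.2.1 and Cuffdiff. The authors deposited 3 tables of FPKM, 1 pooled value per group and feature. Their columns of log2 fold change, test statistic, p-value and q-value were not used. Per-liver depth is unknown, so no interval, SD or p-value was computed.

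Features were assigned to Ensembl genes, and each gene took its feature of highest mean FPKM. Genes with a mean of at least 1 FPKM over the 4 groups were kept, and log2((Mafg LNA HFD + 0.1)/(Scr LNA NCD + 0.1)) was computed with Python 3.11.15 and pandas 2.3.3. The calculation was tested on simulated data. Genes were named if among the 15 highest or 15 lowest ratios with values above 0, if members of a list past 2-fold, if small MAF genes, Irs2 or L-DIO-lncRNAs, or if abundant or defining members of a list. Members and lists were chosen with earlier results of these data known. Alternatives changed the added constant, the filter, the scaling, the choice of feature and the fold. Some genes that met the rule are not reported here.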

Additional observations from a re-analysis of the deposited data

How the results depend on the processing

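The main counts were 177 higher and 186 lower genes. With 0.01 FPKM added they were 189 and 206, and with 1 FPKM added 102 and 101. Without a filter on low values 846 and 632 genes were called among 23068, with a mean of at least 5 FPKM 56 and 62 among 1710, and, where each of the groups had to reach 1 FPKM, 111 and 104 among 5916. Centring on the median of protein-coding genes gave 194 and 167, and rescaling to summed protein-coding FPKM gave 326 and 109. Summing all features of a gene gave 197 and 195, of which 162 and 172 were shared with the main calls, and using only features on the gene's own strand gave 90 and 122 among 2930 genes, of which 78 and 104 were shared. At 4-fold 49 and 48 genes were called. Restricting to protein-coding and lncRNA genes with an annotated transcript of at least 300 bases, chosen after seeing the data, gave 129 and 145 among 5576. Of listed genes 33 were higher and 40 lower, and the count of called ones was 133 without a filter, 30 with a mean of at least 5 FPKM and 45 on the own strand. Of 92 named genes called, it was 33 with a mean of at least 5 FPKM, 57 where each group had to reach 1 FPKM and 44 on the own strand. Cyp2c29 changed direction on the own strand, with a log2 ratio of 0.47. The causes of these differences were not tested beyond the number of genes each setting leaves. Depth could not be assessed. No paired analysis was possible because each group has 1 pooled value, and for the same reason no replicate could be left out.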
